A study of Mus musculus with 8 samples.

Results

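The BMP receptors and Smad proteins carry the signal of the bone morphogenetic proteins (BMPs) from the cell surface to the nucleus. They were examined here in the genital tubercle, the embryonic outgrowth that becomes the penis or the clitoris. The set was chosen by gene symbol and holds 10 genes: the receptor genes Bmpr1a, Bmpr1b, Bmpr2 and Acvr1 and the Smad genes Smad1, Smad4, Smad5, Smad6, Smad7 and Smad9. Every probe set that the platform annotation gives to 1 of these genes alone was used, which made 28 of the 45101 probe sets of the array and 10 of the 18193 genes it names singly.

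RNA came from 4 male and 4 female FVB/N mouse embryos at 14 days post coitum (Theiler stage 22), whose tubercle region was microdissected. The embryos carried no transgene or treatment according to the labels, samples were not pooled, and each was amplified in 2 rounds and hybridized to its own Affymetrix MOE430 array. Litters and amplification days are not given in the sources used here, so p-values reflect only how these samples vary, and part of that variation may be technical. The number of arrays limits the precision. The dissected region holds mesenchyme, epithelium, vessels, nerves and muscle together, and in such bulk RNA a change in the share of a cell type and a change in RNA per cell cannot be told apart.

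In BMP signalling a secreted ligand joins type I receptors (Bmpr1a, Bmpr1b, Acvr1) to a type II receptor (Bmpr2), which switches on the type I kinase. The kinase phosphorylates the receptor-activated Smads (Smad1, Smad5, Smad9), which bind the shared partner Smad4, enter the nucleus and regulate genes such as those of the Id family. Smad6 and Smad7 are inhibitory Smads that the pathway itself induces and that shut it off. In limbs and the tubercle, BMP signals are known for roles in outgrowth, cell death and the formation of skeletal condensations.

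Values are deposited linear intensities, and group levels are means ± SD with n = 4 per sex. Each difference subtracts the female from the male mean of log2(intensity + 16). It comes with the standard error (SE) and adjusted p of a limma fit over all 22519 probe sets whose mean log2 value reached the median of the array, and it understates the change of dim probe sets. Intensities are not compared between probe sets, because each has its own probes. A probe set was called when its limma adjusted p was under 0.05.

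Several measures of the arrays moved with sex. The 18S ribosomal RNA control read 21050 to 33634 on the male arrays and 8332 to 18926 on the female arrays (p = 0.0286 in an exact two-sided permutation test, which cannot give less with 4 against 4). Median intensity was 212 to 249 in males and 184 to 207 in females. Male replicate 3 read 16036 for Xist, the noncoding RNA of the inactive X chromosome, beside 230 to 620 on the other male arrays and 32465 to 35816 on the female arrays. Eif2s3y, a Y-linked translation factor gene, averaged 5480 ± 950 in males and 48.4 ± 20.1 in females. The tubercle genes Hoxd13, Isl1 and Shh were present in both sexes, with means of 18737 or more. Each was called lower in males, with differences of -0.29, -0.33 and -0.39.

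Of the 28 probe sets, 22 reached the intensity filter and were tested, from 9 of the 10 genes. Of these 22, 6 rose in males, 4 fell and 12 did not pass. An unadjusted limma p under 0.05 was found for 11 of the 22, which include the 10 called. Without male replicate 3, limma called 6 of them, 3 in each direction, without female replicate 2 it called 6, and with the 18S level as a covariate it called 0, where 2 had an unadjusted p under 0.05. The share called was 45.5%, close to the 40.5% of all tested probe sets, made up of 18.7% with males above and 21.9% with females above. Male and female ranges stood apart for 8 of the 22, and for 37.1% of all tested probe sets (15.8% with males above, 21.2% with females above). Their median difference was 0.14, beside -0.01 over the array. The set as a whole was thus called about as often as the array, and the account turns on which genes moved and how far: Bmpr1b was 2.84-fold higher in males, Smad6 was at 0.512 of the female level in males, and the rest differed less or differed between their own probe sets.

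**Figure D1:**
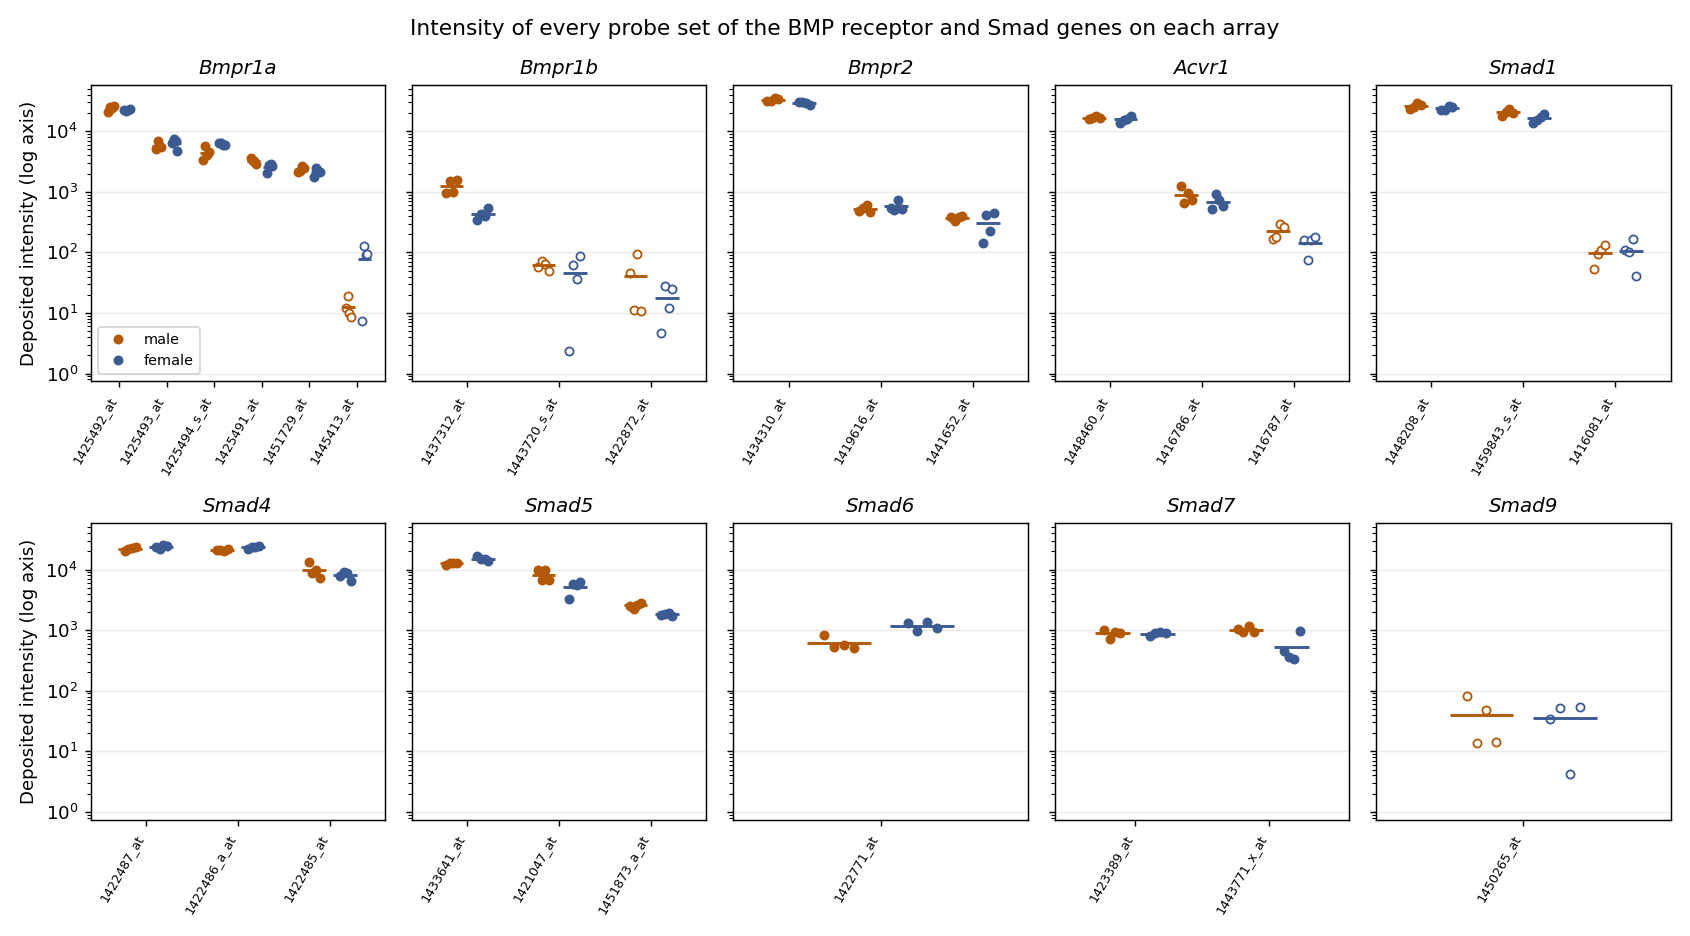
Deposited intensity (log axis) of all 28 probe sets of the 10 genes, with 1 point for each array, males left of females, lines at the mean of 4 arrays, and open points for the 6 probe sets below the intensity filter. Bmpr1b 1437312_at lies higher in males and Smad6 1422771_at lower in males without overlap, while Smad9 stays below 81 on every array.

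Bmpr1b, a type I receptor whose loss in mice shortens the digits, differed most. Its probe set 1437312_at read 939, 1526, 990 and 1579 on the 4 male arrays, against 337, 428, 399 and 542 on the 4 female arrays. Each male array lay above each female array. The means were 1258 ± 341 in males and 426 ± 85.8 in females, a difference of 1.51 ± 0.22 (SE, limma adjusted p = 0.000339), with a 95% interval of 1.04 to 1.98. The call held without each array in turn, at 1.39 to 1.63, and was 1.61 without male replicate 3. With the 18S level as a covariate the size was 1.59 and the call was lost (limma adjusted p = 0.0579, where the range over 16 alternatives was 3.54e-05 to 0.0579).

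The other 2 Bmpr1b probe sets were below the filter. Probe set 1443720_s_at read 49.8 to 72.6 in males and 2.36 to 86 in females, and 1422872_at read 10.9 to 95.9 in males and 4.61 to 28 in females. Neither separated the sexes (limma with no filter, adjusted p = 0.474 and 0.446), so the male excess of Bmpr1b rests on 1 probe set. Of 5 cartilage markers on the array 3 were tested and 2 were higher in males. These were Sox9, the chondrocyte transcription factor, by 1.12 and Col9a1, a cartilage collagen, by 1.69. Col2a1, another cartilage collagen, was at 0.36 and did not pass, and Acan and Matn1 were below the filter. The summed intensity of the 5 cartilage genes was 4197 to 7346 in males and 1974 to 2230 in females. The brightest probe sets, such as that of Col9a1, weigh most in this sum. This direction was not particular to cartilage. Higher in males too were 6 of 9 tested skeletal muscle markers and 4 of 5 tested neuronal markers, with 0 of either list higher in females. The part of these markers in the Bmpr1b difference was not tested.

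Bmpr1a, the broadly expressed type I receptor that is most closely related to Bmpr1b, gave another picture. Its brightest probe set, 1425492_at, read 20848, 24867, 23836 and 26246 in males, against 22671, 21543, 22244 and 22972 in females. The male values span the female range on both sides. The difference was 0.09 ± 0.07 (limma adjusted p = 0.329), with an interval of -0.07 to 0.26. Of 5 tested Bmpr1a probe sets 1 passed, 1425494_s_at, which was lower in males. It read 3362, 5807, 4115 and 4509 in males and 6381, 6329, 6038 and 5983 in females, so that each male array lay below each female array. That difference was -0.50 ± 0.14 (limma adjusted p = 0.0145), and the s suffix is Affymetrix's mark for probes shared between transcripts. With the 18S covariate it was -0.31 and the call was lost (limma adjusted p = 0.509). The remaining tested probe sets had values of -0.11 for 1425493_at, 0.32 for 1425491_at and 0.14 for 1451729_at, and did not pass. Probe set 1445413_at lay below the filter, at 8.54 to 18.8 in males and 7.26 to 126 in females.

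The 2 related receptors were also set against each other within arrays, as the log2 ratio of their brightest probe sets. This restates the values above and is no further evidence, since Bmpr1b alone separated the sexes and Bmpr1a differed little, and it is given without a test. The Bmpr1b to Bmpr1a ratio was -4.45, -4.01, -4.57 and -4.04 in males, and -6.01, -5.60, -5.75 and -5.37 in females. Only the difference between the sexes has a meaning here, since the 2 probe sets are not on a shared scale. It was 1.41 (means -4.27 ± 0.28 in males and -5.68 ± 0.27 in females), and each male ratio lay above each female ratio.

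A window at an annotated transcript start is shown for both receptor genes, to give the letters around it. They are RefSeq windows (GRCm38.p6) of 250 bases before to 50 after that start, on the gene's strand. Capitals mark the Smad half-site (GTCT, or AGAC on the other strand) and GGCGCC, a GC-rich element of BMP targets. The Bmpr1b window lies at chr3:141982215-141982514 on the minus strand. It is the most upstream of the 3 Bmpr1b windows in the table, but its start lies 187321 bases inside the annotated gene, and no window at the gene's own 5′ end was used here. The Bmpr1a window lies at chr14:34502497-34502796 on the minus strand, with a start 790 bases inside the gene.
Bmpr1b: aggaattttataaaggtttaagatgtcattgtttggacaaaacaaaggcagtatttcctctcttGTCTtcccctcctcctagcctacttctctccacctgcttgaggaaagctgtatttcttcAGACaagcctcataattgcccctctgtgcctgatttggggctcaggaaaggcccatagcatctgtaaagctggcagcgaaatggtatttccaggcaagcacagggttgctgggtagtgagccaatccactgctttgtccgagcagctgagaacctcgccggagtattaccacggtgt
Bmpr1a: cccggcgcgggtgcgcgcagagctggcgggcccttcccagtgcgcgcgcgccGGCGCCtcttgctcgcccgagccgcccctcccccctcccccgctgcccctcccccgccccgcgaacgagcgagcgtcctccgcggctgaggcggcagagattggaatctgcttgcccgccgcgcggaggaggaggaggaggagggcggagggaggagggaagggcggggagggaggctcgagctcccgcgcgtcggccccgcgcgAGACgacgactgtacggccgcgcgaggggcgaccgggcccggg

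The Bmpr1b window was 48.3% G or C with 5 CG dinucleotides, and the Bmpr1a window was 79.3% G or C with 48. These are values of the 2 windows, and they do not compare the 5′ ends of the genes. The median of the 32851 windows in the table was 52.7% and 7 CG. The other 2 Bmpr1b windows, which overlap each other, held 6 CG each at 53% and 55.7% G or C. A half-site was found in 88% of all windows, and GGCGCC in 11.9%. The Bmpr1b window printed held 2 half-sites and no GGCGCC. In the Bmpr1a window there were 1 half-site and 1 GGCGCC. These are matches of letters and not sites of binding.

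Acvr1, the type I receptor known as ALK2, did not pass on either tested probe set. The brighter, 1448460_at, read 16128, 16522, 17589 and 16631 in males and 13664, 15211, 16131 and 17749 in females. The sexes overlapped, and the difference was 0.10 ± 0.08 (limma adjusted p = 0.372), with an interval of -0.08 to 0.28. Probe set 1416786_at was at 0.37 ± 0.23 and had the wider interval of -0.14 to 0.88. The dim 1416787_at, below the filter, read 166 to 297 in males and 74.2 to 177 in females.

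Bmpr2 is a type II receptor of the pathway, and its brightest probe set passed by a narrow margin. Probe set 1434310_at read 31142, 31866, 34828 and 33552 in males, against 30067, 30313, 29388 and 27118 in females. The ranges did not overlap, yet the difference was only 0.17 ± 0.06, or 1.12-fold (limma adjusted p = 0.042). The call was lost without any 1 of 7 arrays, all but male replicate 1, with limma adjusted p values from 0.0554 without female replicate 2 to 0.107 without male replicate 3 and differences of 0.13 to 0.19. It was also lost without the filter (0.105), without the variance trend (0.186), with the replicate number as a block (0.0713) and with the 18S covariate (0.46). The dimmer 1419616_at was at -0.13 ± 0.18 and 1441652_at at 0.38 ± 0.31, and neither passed.

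**Figure D2:**
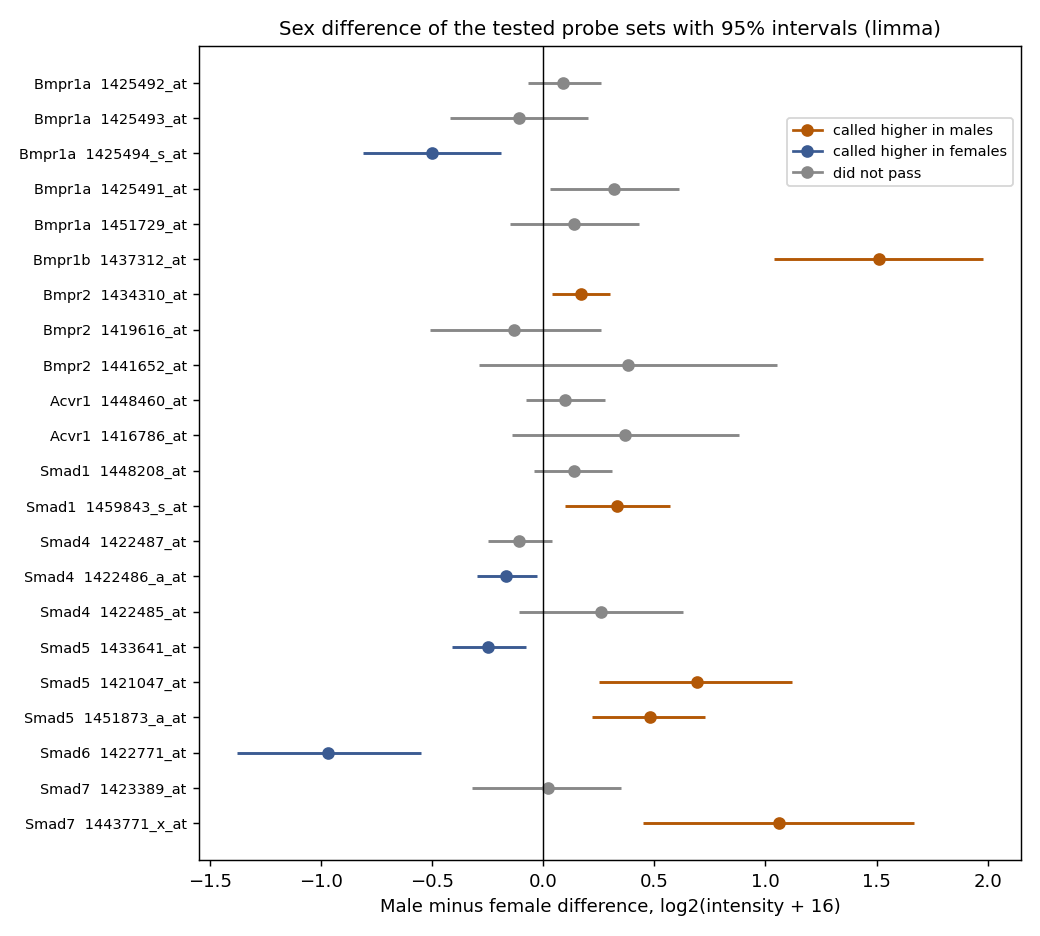
Male minus female differences of the 22 tested probe sets on the log2(intensity + 16) scale, with points for the limma estimate and lines for its 95% interval. Bmpr1b at 1.51 and Smad6 at -0.97 lie farthest from 0 on each side, with Smad7 1443771_x_at at 1.06, and the 3 Smad5 probe sets fall on both sides of 0, where 1421047_at turns to -0.12 with the 18S covariate.

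Among the receptor-activated Smads, Smad1 and Smad5 are near-equivalent effectors in many tissues. The brightest Smad1 probe set, 1448208_at, read 23630, 25456, 29178 and 27094 in males, and 22392, 22296, 25997 and 25108 in females. The ranges overlapped, and at 0.14 ± 0.08 it did not pass (limma adjusted p = 0.189). The second, 1459843_s_at, which has the suffix for shared probes, read 17891, 20949, 23568 and 20067 in males against 13856, 15347, 17243 and 19202 in females. Only female replicate 4 reached into the male range. Its difference of 0.33 ± 0.11 passed (limma adjusted p = 0.0271), but not without male replicate 2 (0.0596), male replicate 3 (0.0842), female replicate 1 (0.0831) or female replicate 2 (0.0696). The call was also lost without the filter (0.0663), without the variance trend (0.0813) and with the 18S covariate (0.664, at a difference of 0.16). The third Smad1 probe set, 1416081_at, was below the filter, at 53 to 132 in males and 40.3 to 168 in females.

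Smad5 was the only member with more than 1 called probe set, and its calls went both ways. Its brightest, 1433641_at, read 12093, 13043, 12600 and 12986 in males, against 16451, 15086, 15075 and 13627 in females. Every male array lay below every female array, at a difference of -0.25 ± 0.08 (limma adjusted p = 0.0216). By contrast, 1421047_at read 9902, 6600, 9672 and 6782 in males and 3252, 5710, 5487 and 6243 in females, a difference of 0.69 ± 0.20 (limma adjusted p = 0.0168). Probe set 1451873_a_at was also higher in males, with 2518, 2258, 2602 and 2831, against 1792, 1858, 1917 and 1729 in females (0.48 ± 0.12, limma adjusted p = 0.00705). None of the 3 overlapped between the sexes, so no single direction holds for Smad5. Over the array, such mixed directions were found for 371 of the 1512 genes that had 2 or more calls (24.5%).

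The stability of the Smad5 calls differed. The call of 1451873_a_at held without each array, with differences of 0.43 to 0.53, and was lost with the 18S covariate (0.48, limma adjusted p = 0.246). That of 1421047_at was lost without male replicate 3 (0.60, limma adjusted p = 0.0549), and its sign turned with the 18S covariate (-0.12). The female excess of 1433641_at was lost without female replicate 1 (-0.20, limma adjusted p = 0.0728), female replicate 2 (-0.24, 0.0503) or female replicate 3 (-0.24, 0.056), without the variance trend (0.0765) and with the 18S covariate (-0.11, 0.684).

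Smad9, the third receptor-activated Smad, was near the bottom of the scale. Its only probe set read 80.6, 13.8, 47.3 and 14.5 in males and 33.5, 51.6, 4.27 and 53.7 in females, below the filter on every array. With no filter the difference had a limma adjusted p of 0.952. No ratio of Smad9 to Smad1 was formed, because no Smad9 probe set was tested.

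Smad4, the shared partner of all receptor-activated Smads, differed little. Probe set 1422487_at read 20544, 21520, 23022 and 23455 in males and 23580, 22191, 25076 and 24451 in females (-0.11 ± 0.07, limma adjusted p = 0.223). The nearly as bright 1422486_a_at read 20735, 20652, 20486 and 21495 in males, against 21522, 23797, 23881 and 24430 in females, where the lowest female array lay just above the highest male array. It passed at -0.17 ± 0.06, or 0.891 of the female level (limma adjusted p = 0.0491). That call was lost without any 1 of 7 arrays, all but female replicate 1, with limma adjusted p values from 0.0603 without male replicate 1 to 0.124 without female replicate 3 and differences of -0.18 to -0.14. It was lost as well with quantile normalization (0.0621), without the filter (0.101), without the trend (0.181), with the replicate number as a block (0.0681) and with the 18S covariate (0.273). Probe set 1422485_at was at 0.26 ± 0.17 and did not pass.

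The inhibitory Smads parted. Smad6, which blocks BMP type I receptors, was lower in males on its only probe set, 1422771_at. It read 821, 531, 558 and 498 in males, against 1309, 972, 1357 and 1076 in females. All 4 male arrays lay below all 4 female arrays. The means were 602 ± 148 in males and 1179 ± 184 in females, a difference of -0.97 ± 0.19 (limma adjusted p = 0.00207), with an interval of -1.38 to -0.55. It held without each array, at -1.12 to -0.89, and was -0.94 without male replicate 3. With the 18S covariate the size was -0.81 and the call was lost (limma adjusted p = 0.206, where the range over 16 alternatives was 0.000267 to 0.206).

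Smad6 is known for its place in the endothelium, so vessel markers are given beside it. Of 5 blood endothelial markers 4 were tested. Kdr, Tek and Pecam1, genes of endothelial surface receptors and adhesion, were higher in males by 1.16, 0.93 and 0.66, and Cdh5, the endothelial cadherin, was lower in males, at -0.57. Their summed intensity over 5 genes was 8075 to 10118 in males and 6233 to 7549 in females, a sum in which the brightest probe sets weigh most, with Tie1 below the filter. The markers thus moved in both directions. Among all genes on their brightest tested probe set, 14% were called with males above and 28.2% with females above. What part the endothelial markers had in the Smad6 difference was not tested.

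The window at the annotated Smad6 transcript start, 26 bases inside the gene, is shown because it holds the letters of a palindromic Smad site. It lies at chr9:64022010-64022309 on the minus strand (RefSeq, GRCm38.p6), with the same span and capitals as above.
Smad6: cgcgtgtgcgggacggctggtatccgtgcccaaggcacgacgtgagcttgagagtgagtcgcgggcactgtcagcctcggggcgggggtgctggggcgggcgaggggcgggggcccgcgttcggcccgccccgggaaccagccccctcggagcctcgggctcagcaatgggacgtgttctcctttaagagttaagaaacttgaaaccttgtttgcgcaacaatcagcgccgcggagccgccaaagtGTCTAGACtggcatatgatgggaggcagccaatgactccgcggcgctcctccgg

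The palindrome GTCTAGAC, which joins a GTCT and an AGAC half-site and reads the same on both strands, begins 4 bases before that start. It was found in 70 of the 32851 windows (0.213%). Among the 12 windows of 8 members that were searched, Smad6 was the only one with it. Windows on chromosome 18, where Smad4 and Smad7 lie, were left out of this search of the members. The count over all windows did not leave that chromosome out. Smad6 thus cannot be set apart from Smad4 and Smad7 by the palindrome. The Smad6 window was 66.3% G or C with 31 CG, and GGCGCC was not found in it.

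Smad7, which inhibits both BMP and TGF-beta receptors, had 2 tested probe sets that disagreed. Probe set 1423389_at read 1016, 712, 931 and 910 in males and 797, 890, 928 and 892 in females. The ranges overlapped throughout, and the difference of 0.02 ± 0.15 had an interval of -0.32 to 0.35 (limma adjusted p = 0.945). Probe set 1443771_x_at read 1032, 942, 1161 and 918 in males, against 452, 357, 330 and 954 in females. Female replicate 4 lay inside the male range and the other 3 females lay below it. The difference was 1.06 ± 0.28 (limma adjusted p = 0.0102), and it was 1.38 without female replicate 4. The x suffix marks probes that may hybridize to other transcripts, and the call was lost with the 18S covariate (limma adjusted p = 0.32).

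Within arrays, the log2 ratio of Smad6 to Smad7, taken on the brightest tested probe set of each, was -0.30, -0.41, -0.72 and -0.85 in males and 0.71, 0.12, 0.54 and 0.27 in females. The difference was -0.98, with means of -0.57 ± 0.26 in males and 0.41 ± 0.26 in females, and it was lower in 4 of 4 males than in every female. It too restates the values of its probe sets and is given without a test. With the mean of the tested probe sets of each gene the difference was -1.50.

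**Figure D3:**
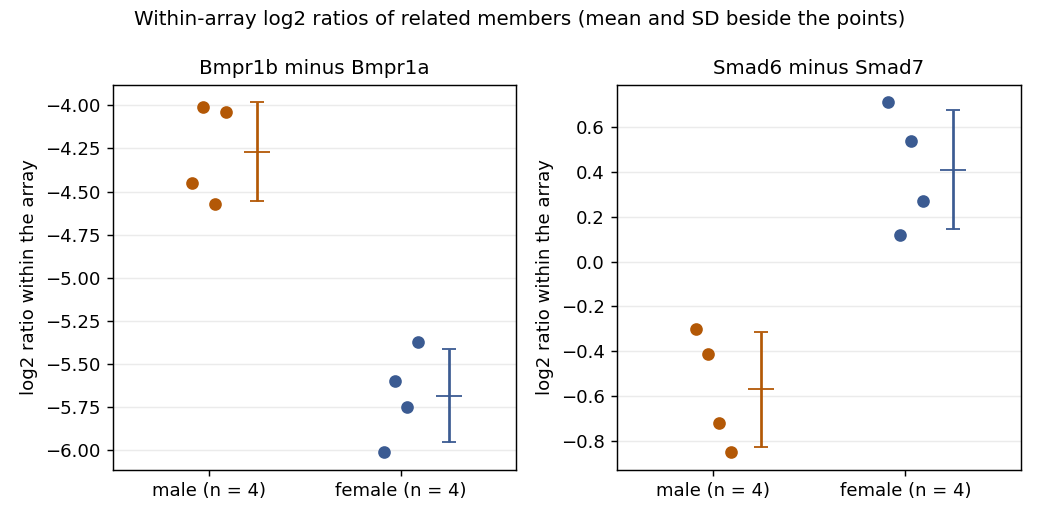
Log2 ratio within each array of Bmpr1b to Bmpr1a (left) and of Smad6 to Smad7 (right), males left of females, with points for arrays and bars for the mean and SD of 4 arrays. The sexes do not overlap in either ratio, with differences of 1.41 and -0.98.

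By role, 3 of 11 tested receptor probe sets were called, 2 with males above and 1 with females above (27.3%). For the receptor-activated Smads with Smad4 it was 5 of 8, 3 with males above and 2 with females above (62.5%), and for the inhibitory Smads 2 of 3, with 1 in each direction. Over all tested probe sets the share called was 40.5%. The 5 called of 8 include the 3 Smad5 probe sets, whose calls went both ways. The difference between these shares was not tested. Of 7 genes with more than 1 tested probe set, 4 had tested probe sets of both signs. Signs were taken whether or not a probe set passed, and the same share over all genes of the array was not counted.

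Calls over the array depended on brightness, which is the frame for single members. The tested probe sets were split into 4 equal bins by mean log2 intensity, which held 1, 6, 3 and 12 probe sets of these genes from dimmest to brightest. In the dimmest bin 15.8% were called with males above and 8.35% with females above. Bmpr1b, Smad6 and both Smad7 probe sets lay in the next bin, where these shares were 17.4% with males above and 20.7% with females above. In the third bin they were 19.3% with males above and 29.6% with females above, and in the brightest 22.3% with males above and 28.7% with females above.

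Genes with the most similar profile over the 8 arrays were sought for Bmpr1b and Smad6, by the root mean square distance of log2 values centred on each probe set's mean. For Bmpr1b these were Rbm24, an RNA-binding protein gene, at 0.111, Gsr, the glutathione reductase gene, at 0.178, and Chsy3, a chondroitin synthase gene, at 0.194. Their differences were 1.45, 1.44 and 1.66. For Smad6 they were Aldh2 at 0.0853, Eno3 at 0.0978 and Ddx49 at 0.101, which encode an aldehyde dehydrogenase, an enolase and a helicase, with differences of -0.87, -0.85 and -0.81. The distance is small wherever a sex difference of like size meets a like spread.

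The surrounding pathway was described from lists made by known role, each gene on its brightest tested probe set. Over all 11489 genes tested so, 42.2% were called, 14% with males above and 28.2% with females above. Of 9 tested ligands and antagonists, 5 rose in males, 2 fell and 2 did not pass, with a median of 0.36. The ligand Bmp5 averaged 11622 ± 645 in males and 7357 ± 450 in females (0.66 ± 0.08, limma adjusted p = 0.000154), with other tested probe sets at 1.09, which passed, and 0.64, which did not. The antagonist Fst rose in males by 0.74 ± 0.13, while the ligands Bmp4 (-0.85 ± 0.18) and Bmp7 (-0.78 ± 0.11) were lower in males.

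Among 9 other tested receptors and coreceptors, none rose in males, 4 fell and 5 did not pass, with a median of -0.06. Bambi, a decoy receptor that BMP signals induce, averaged 8317 ± 1684 in males and 13832 ± 1110 in females (-0.75 ± 0.12, limma adjusted p = 0.000781). The coreceptor Eng was at -0.84 ± 0.19, with a second tested probe set at 0.02 that did not pass, the activin receptor Acvr1b at -0.53 ± 0.12 and the TGF-beta receptor Tgfbr2 at -0.33 ± 0.10.

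In the list of other Smads and their regulators, 2 of 18 tested genes rose in males, 7 fell and 9 did not pass, with a median of -0.14. Lemd3, an inner nuclear membrane protein that binds Smads and restrains them, rose by 0.70 ± 0.12 in males, and Usp9x, an X-linked deubiquitinase that acts on Smad4, by 0.53 ± 0.11. Usp9x had 6 further tested probe sets, of which 3 passed, at 1.40, 1.56 and 1.78, and 3 did not, at 0.15, 0.17 and 0.36, so its size is not settled. The corepressor Ski (-0.66 ± 0.12) and the phosphatase gene Ctdsp1 (-0.54 ± 0.14) were lower in males, with a second tested Ski probe set at -0.17 that did not pass.

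Target genes of the pathway went in both directions. Of 7 tested, 1 rose in males, 3 fell and 3 did not pass, with a median of -0.17. Id1, a direct target of BMP Smads, averaged 2307 ± 348 in males and 3833 ± 220 in females (-0.74 ± 0.12, limma adjusted p = 0.000845). Id3 (-1.29 ± 0.15) and the homeobox gene Msx2 (-0.76 ± 0.19) were also lower in males. Id4 was higher in males by 1.67 ± 0.13 on its brightest probe set, while its other tested probe set was at -0.02 and did not pass.

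**Figure D4:**
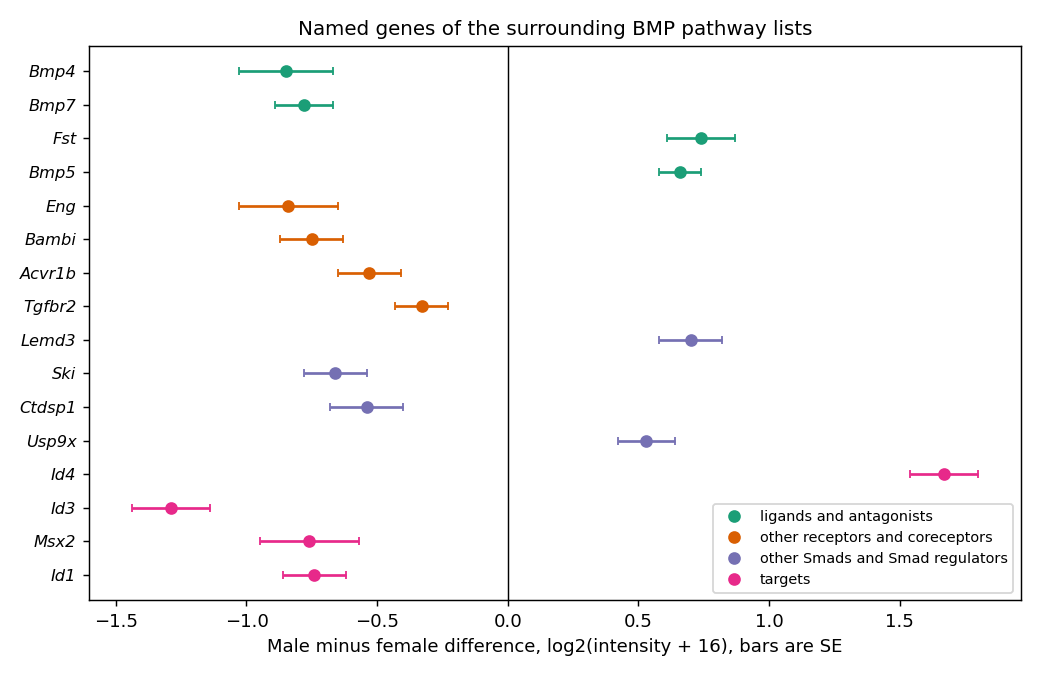
Male minus female differences of the 16 named genes of the 4 surrounding pathway lists, on the log2(intensity + 16) scale with bars for the SE of the limma fit. Id4 lies highest at 1.67 and Id3 lowest at -1.29, and the 4 named coreceptor and receptor genes all lie below 0.

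Some markers of other cell types differed with sex too, and their part in these results was not tested. Over all genes on their brightest tested probe set 42.2% were called, 14% with males above and 28.2% with females above. No marker list was tested against these shares. Of the marker lists, skeletal muscle had 6 of 9 tested genes higher in males and none higher in females, with Myf5 below the filter. Its summed intensity was 12592 to 20089 in males and 4136 to 9804 in females. In such sums the brightest probe sets weigh most, here that of Myh3. Neuronal markers had 4 of 5 tested genes higher in males, with Tubb3, Th and Prph below the filter. Of 7 epithelial markers Trp63 rose in males and 4 fell, the keratins Krt5, Krt8, Krt14 and Krt18, with a summed intensity of 47438 to 51730 in males and 47291 to 54564 in females. Of the tubercle mesenchyme markers, 4 of 9 were higher in females and none in males. Of 4 macrophage markers 1 rose in males and 1 fell, and of 4 erythroid markers 1 rose in males and 2 fell. The 2 tested Schwann cell markers and the 1 tested gonad marker did not pass. Below the filter were the gonad markers Amh, Nr5a1 and Dmrt1, Foxd3 of Schwann cells, C1qa of macrophages and Hoxa13 of mesenchyme.

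**Figure D5:**
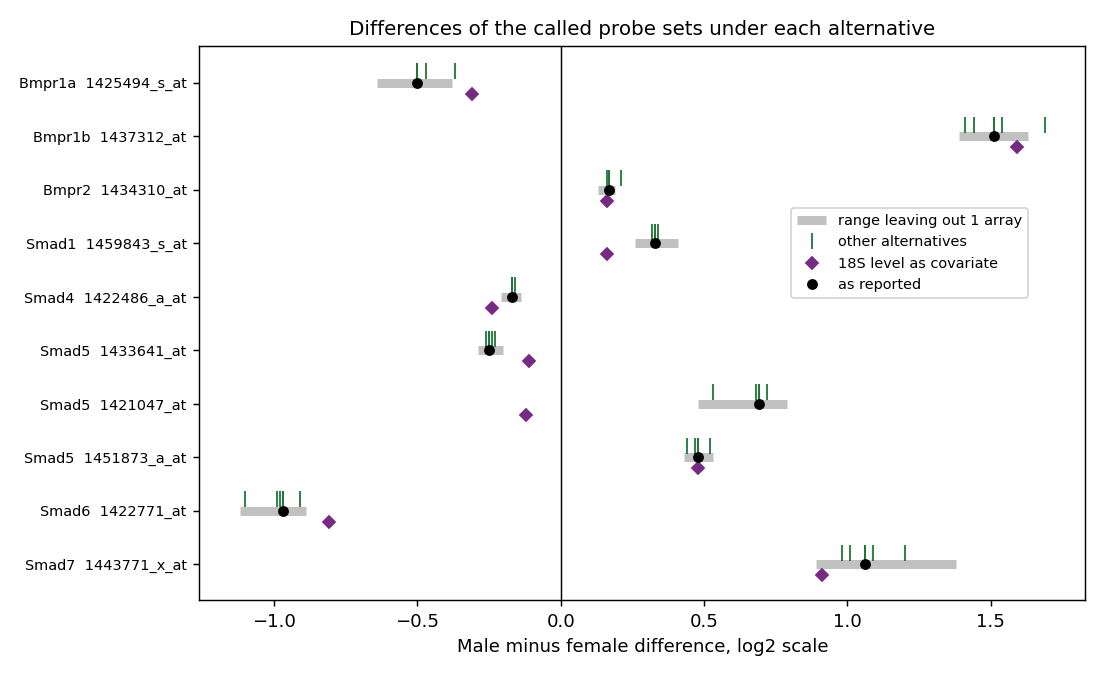
Male minus female differences (log2 scale) of the 10 called probe sets as reported (black), over the 8 fits that leave out 1 array (grey bars), under the other alternatives (green ticks) and with the 18S level as a covariate (purple). The grey bars of all 10 stay on 1 side of 0, from 0.13 to 0.19 for Bmpr2 to 1.39 to 1.63 for Bmpr1b, and Smad5 1421047_at turns from 0.69 to -0.12 with the covariate.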

How the data were processed

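Each of the 8 samples was 1 Affymetrix MOE430 array. The deposited linear intensity of each probe set came from the Affymetrix software GCOS, per the submitters' processing notes, and its version and settings are not given in the sources used here. All columns had the same trimmed mean (2% at each end), and the authors' values were therefore not normalized again. Genes were named through the platform annotation, from the 34945 probe sets with 1 gene, and promoter windows came from RefSeq tables (GRCm38.p6).

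Intensities became log2(value + 16). Without the 64 control probe sets, the 22519 probe sets with a mean log2 value of at least 7.77 were tested with limma (version 3.58.1, R version 4.3.3), using lmFit and eBayes with a variance trend and no term but sex. Adjustment was Benjamini-Hochberg over all of them, at a threshold of 0.05. The 18S level and the median intensity were compared with exact permutation tests, and the ratios are given without a test. The method was tested on simulated data with independent values. These held no array-wide difference between the sexes, unlike the real arrays. No pair among 28 pairs of arrays held identical values. All probe sets of the 10 genes are named, up to 4 called genes with the largest difference of each pathway list, and the 3 nearest profiles of the called gene with the largest difference in each direction. The genes, lists, motifs and alternatives were chosen with earlier results of these data known. Alternatives were quantile normalization, other pseudocounts, filters and variance models, the replicate number as a block, array weights, the 18S level as a covariate and leaving out each array.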

Additional observations from a re-analysis of the deposited data

Results flagged for a closer look

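In 56 groups of 4 arrays (28 probe sets, 2 sexes), 2 held an array far from the other 3, where chance gives about 1 in 20 groups, and both were on probe sets below the intensity filter. Female replicate 1 read 7.26 on Bmpr1a 1445413_at, beside 90.1 to 126 on the other female arrays, and the males read 8.54 to 18.8. Female replicate 2 read 74.2 on Acvr1 1416787_at, beside 160 to 177 on the other female arrays, and the males read 166 to 297.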

How the results depend on the processing

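Of the 10 calls, 5 were lost only with the 18S covariate (Bmpr1a 1425494_s_at, Bmpr1b, Smad5 1451873_a_at, Smad6 and Smad7 1443771_x_at), and the other 5 were also lost on leaving out at least 1 array. With that covariate limma called 0 of the 22 probe sets (2 at an unadjusted p under 0.05), 0 in each direction, and 414 over the array (1.84%, beside 9128 without it). The 18S level itself differs between the sexes, and the cause of the lost calls was not tested. The differences with it were -0.04 for Bmpr1a 1425491_at, -0.17 for Bmpr1a 1451729_at, -0.63 for Bmpr2 1441652_at, -0.05 and -0.35 for Acvr1 1448460_at and 1416786_at, -0.07 for Smad4 1422485_at, -0.12 for Smad5 1421047_at and -0.17 for Smad7 1423389_at, all of the opposite sign to those reported. Smad7 1423389_at, at 0.02, also turned with array weights (-0.08) and without male replicate 1 (-0.05), male replicate 3 (-0.01) or female replicate 1 (-0.03), with -0.05 to 0.12 over the fits that leave out 1 array. Without the variance trend 6 probe sets were called, 2 of them higher in females. The upper-quartile filter left 5890 calls over the array, from fewer probe sets tested. Quantile normalization kept 9 of the 10 calls, added Bmpr1a 1425491_at (0.36, limma adjusted p = 0.0444) and moved the median of the array to -0.05. Leaving out 1 array gave 6 to 9 calls (6 without male replicate 3 or female replicate 2), 3 to 6 of them higher in males and 2 to 3 higher in females, and 7358 to 9468 over the array. The ratio differences then ran from 1.30 to 1.52 for Bmpr1b to Bmpr1a and from -1.08 to -0.88 for Smad6 to Smad7, and that of the 18S level from 0.85 to 1.25 on the log2 scale. An exact test of 3 against 4 arrays cannot go below p = 0.0571, so the test of the 18S level could not pass there.

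Whether the replicate numbers pair the arrays, by litter or amplification day, was not tested. Deviations of same-numbered arrays correlated at -0.126 to 0.0391, and no male array matched best with the female of its own number. With the replicate block 8 of the 22 probe sets were called, all among the 10, and 8460 over the array. The ratio of Smad9 to Smad1 was not run, since no Smad9 probe set was tested. Low intensity limits what can be seen of Smad9 and of the 5 other probe sets below the filter.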
